A study of Mus musculus with 2 samples.

Results

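The genes described here encode 8 proteoglycans and 1 glycoprotein of the extracellular matrix and the cell surface, namely Bcan, Vcan, Ncan, Cspg4, Ptprz1, Dcn, Lum, Bgn and Tnc. They were taken by symbol from the feature list, which gave 9 of the 32285 genes measured, and all 9 had enough counts to be tested. They were measured by droplet single cell RNA sequencing (scRNA-seq) of L4 and L5 dorsal root ganglia (DRGs) from naive female C57BL/6 mice at 3 months of age, with 2 samples and no treated or mutant group. The study calls the samples biological replicates, but the number of animals in each was not given, and live cells were sorted before capture. Every comparison is therefore between groups of cells within this 1 condition, with n = 2 samples. Its p-values measure the spread between these samples only, pooled over all groups of a fit, which come from the same 2 samples.

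The UMIs (unique molecular identifiers, 1 per captured transcript) of the called cells summed to 107335157 in sample 1 and 111307507 in sample 2. Groups of cells were found by clustering in which the 9 genes took no part, leaving 8359 and 8200 cells. Types were named by fixed marker lists that include the marker pairs of the study. At least 3 markers of a type had to be among the 50 leading genes of a cluster. The clusters and the tests still come from the same cells. Satellite glial cells (SGCs), which wrap the neuronal somas, held Fabp7 at 13785 and 14187 CPM (counts scaled to a common library total), and fibroblasts held 2955 and 2544 CPM of Col1a1. In Pou3f1-positive glia, Fabp7 was at 3831 and 3624 CPM and Pou3f1 at 273 and 279, yet myelinating Schwann cells held more Pou3f1, 787 and 865 CPM. Lgr5-led glia, Igfbp6-led cells and the fibroblast subtypes are called by their leading genes alone. The samples shared 126 barcodes among grouped cells, of which most lay in deep neurons or in shallow neuron-like droplets, a group of 304 and 113 droplets with a median of 847 and 745 UMIs that enters no comparison.

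Lecticans are chondroitin sulfate proteoglycans that bind hyaluronan at one end and tenascins at the other, and in the brain they build the matrix around neurons. Brevican (Bcan), versican (Vcan) and neurocan (Ncan) belong to them. Ptprz1 is a receptor tyrosine phosphatase whose outer part carries chondroitin sulfate, and Cspg4 (NG2) is a transmembrane proteoglycan known from pericytes and glial progenitors. Decorin (Dcn), lumican (Lum) and biglycan (Bgn) are small leucine-rich proteoglycans (SLRPs) that bind collagen fibrils, and tenascin-C (Tnc) is a large matrix glycoprotein. In peripheral nerve, chondroitin sulfate proteoglycans are known to limit axon growth.

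On mm10, in the GENCODE annotation, Bcan lies at chr3:87987531-88000230, Vcan at chr13:89655312-89742509, Ncan at chr8:70093085-70120873, Cspg4 at chr9:56865033-56899870 and Ptprz1 at chr6:22875502-23052916. Dcn lies at chr10:97479609-97518143, Lum at chr10:97565128-97572703, Bgn at chrX:73483602-73495933 and Tnc at chr4:63959785-64047015. Reads were counted over whole genes from 3' ends, so levels are compared between groups and not between genes.

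Bcan, Ptprz1 and Ncan were the members with their highest level in SGCs, so the starts of these 3 genes are shown for reference. Each stretch covers 250 bases before to 50 bases after the RefSeq start on GRCm38.p6, written 5' to 3' on the gene's strand, with capitals where the box motif GGGCGG or the promoter motif TATAAA is found on either strand, so that their reverse complements stand in capitals too.
Bcan, chr3:88000307-88000606, minus strand: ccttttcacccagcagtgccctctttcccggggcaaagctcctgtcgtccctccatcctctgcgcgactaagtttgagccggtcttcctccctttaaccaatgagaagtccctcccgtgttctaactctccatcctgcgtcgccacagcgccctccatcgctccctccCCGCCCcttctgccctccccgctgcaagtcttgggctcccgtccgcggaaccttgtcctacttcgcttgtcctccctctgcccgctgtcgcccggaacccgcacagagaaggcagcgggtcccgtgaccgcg
Ptprz1, chr6:22875252-22875551, plus strand: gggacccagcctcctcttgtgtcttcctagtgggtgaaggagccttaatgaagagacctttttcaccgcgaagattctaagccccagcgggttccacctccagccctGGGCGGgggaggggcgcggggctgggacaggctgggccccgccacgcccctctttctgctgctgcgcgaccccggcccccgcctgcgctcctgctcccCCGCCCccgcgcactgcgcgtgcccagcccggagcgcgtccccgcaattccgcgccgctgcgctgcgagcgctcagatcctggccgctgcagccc
Ncan, chr8:70120795-70121094, minus strand: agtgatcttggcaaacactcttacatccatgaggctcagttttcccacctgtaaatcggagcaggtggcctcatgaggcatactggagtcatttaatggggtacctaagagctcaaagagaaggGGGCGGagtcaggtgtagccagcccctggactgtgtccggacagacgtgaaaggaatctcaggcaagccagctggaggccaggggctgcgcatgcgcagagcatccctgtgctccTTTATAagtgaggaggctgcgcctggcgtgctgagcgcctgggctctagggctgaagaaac
GGGCGG was found in 8 of 8 member promoters, which belong to 7 genes since Tnc has 2 starts, and in 35.7% of all 32851 promoters of this length. TATAAA was found in 3 of 8, those of Ncan and Tnc, and in 13.6% of all promoters. The 2 Tnc windows overlap and hold the same GGGCGG and TATAAA, so each is counted in both. Dcn and Lum had no promoter entry. GC content was 47.3% to 71.7% in the member promoters, against a median of 52.7% over all promoters. ACAAAG, the core of SOX motifs, was in 0 of 8 and in 18.7% of all. These counts describe letters in a window and say nothing of a factor.

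Bcan was high in SGCs and low in Schwann cells. Its level, in CPM scaled by TMM (a normalization across profiles), was 647 and 674 in SGCs, 467 and 455 in Lgr5-led glia and 310 and 306 in Pou3f1-positive glia. Non-myelinating Schwann cells, which ensheath small axons, held 29.7 and 40.4 CPM, and myelinating Schwann cells held 17.8 and 22.4 CPM. The groups did not overlap, and the order was the same in both samples. SGCs exceeded non-myelinating Schwann cells 18.7-fold (log2 fold change 4.23 ± 0.23 SE, adjusted p = 2.7e-12, edgeR quasi-likelihood test) and myelinating Schwann cells 32.8-fold (5.04 ± 0.23, adjusted p = 3.55e-14). Pou3f1-positive glia lay between, 2.14-fold below SGCs (adjusted p = 9.84e-05) and 8.73-fold above non-myelinating Schwann cells (adjusted p = 5.72e-10). The higher level in non-myelinating than in myelinating Schwann cells, log2 0.81 ± 0.25 (adjusted p = 0.0149), turned to -0.01 when cells marked as doublets were left out.

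The same order was seen cell by cell. With every cell thinned to 1000 UMIs, Bcan was detected in 41.2% and 42.8% of SGCs, 32.2% and 30.9% of Lgr5-led glia and 23.3% and 22.1% of Pou3f1-positive glia. It was found in 2.41% and 2.96% of non-myelinating Schwann cells. Endothelial cells, taken as a type that should lack it, gave 0.559% and 2.59% (exact 95% intervals up to 3.07% and 5.94%), and these intervals overlapped those of non-myelinating Schwann cells. Of these endothelial cells 24.0% and 23.8% were marked as doublets, and without marked cells they held 4.43 and 7.42 plain CPM of Bcan, against 15.6 and 18.3 in non-myelinating Schwann cells. Before thinning, 97.3% and 97.9% of SGCs held a Bcan UMI, against 12.8% and 14.0% of endothelial cells, at medians of 16698 and 17874 against 15793 and 17686 UMIs per cell. Cells below 1000 UMIs were left out of thinning, at most 11 per group and sample among the groups compared. Bcan and Ptprz1 were detected together in 27.0% and 29.6% of thinned SGCs and in 12.8% and 13.2% of Pou3f1-positive glia. The joint share expected from the single genes was not computed.

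Ptprz1 spread further along the glia than Bcan. SGCs held 1337 and 1348 CPM, Lgr5-led glia 963 and 962, Pou3f1-positive glia 827 and 807, and non-myelinating Schwann cells still 510 and 511. Myelinating Schwann cells were the low group among the glia, at 40.3 and 56.4 CPM. Here too no groups overlapped. The fall from SGCs to non-myelinating Schwann cells was 2.63-fold (log2 1.40 ± 0.21, adjusted p = 1.67e-05), and non-myelinating Schwann cells exceeded myelinating ones 10.54-fold (log2 3.40 ± 0.24, adjusted p = 1.05e-10). Pou3f1-positive glia were 1.64-fold below SGCs (adjusted p = 0.0138) and 1.60-fold above non-myelinating Schwann cells (adjusted p = 0.0236). The first of these calls was lost under DESeq2 (adjusted p = 0.0586) and the second under 6 alternatives, with adjusted p from 0.0884 to 0.616. Of the UMIs of both genes, Bcan made up 32.6% and 33.3% in SGCs but 5.50% and 7.32% in non-myelinating Schwann cells.

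**Figure D1:**
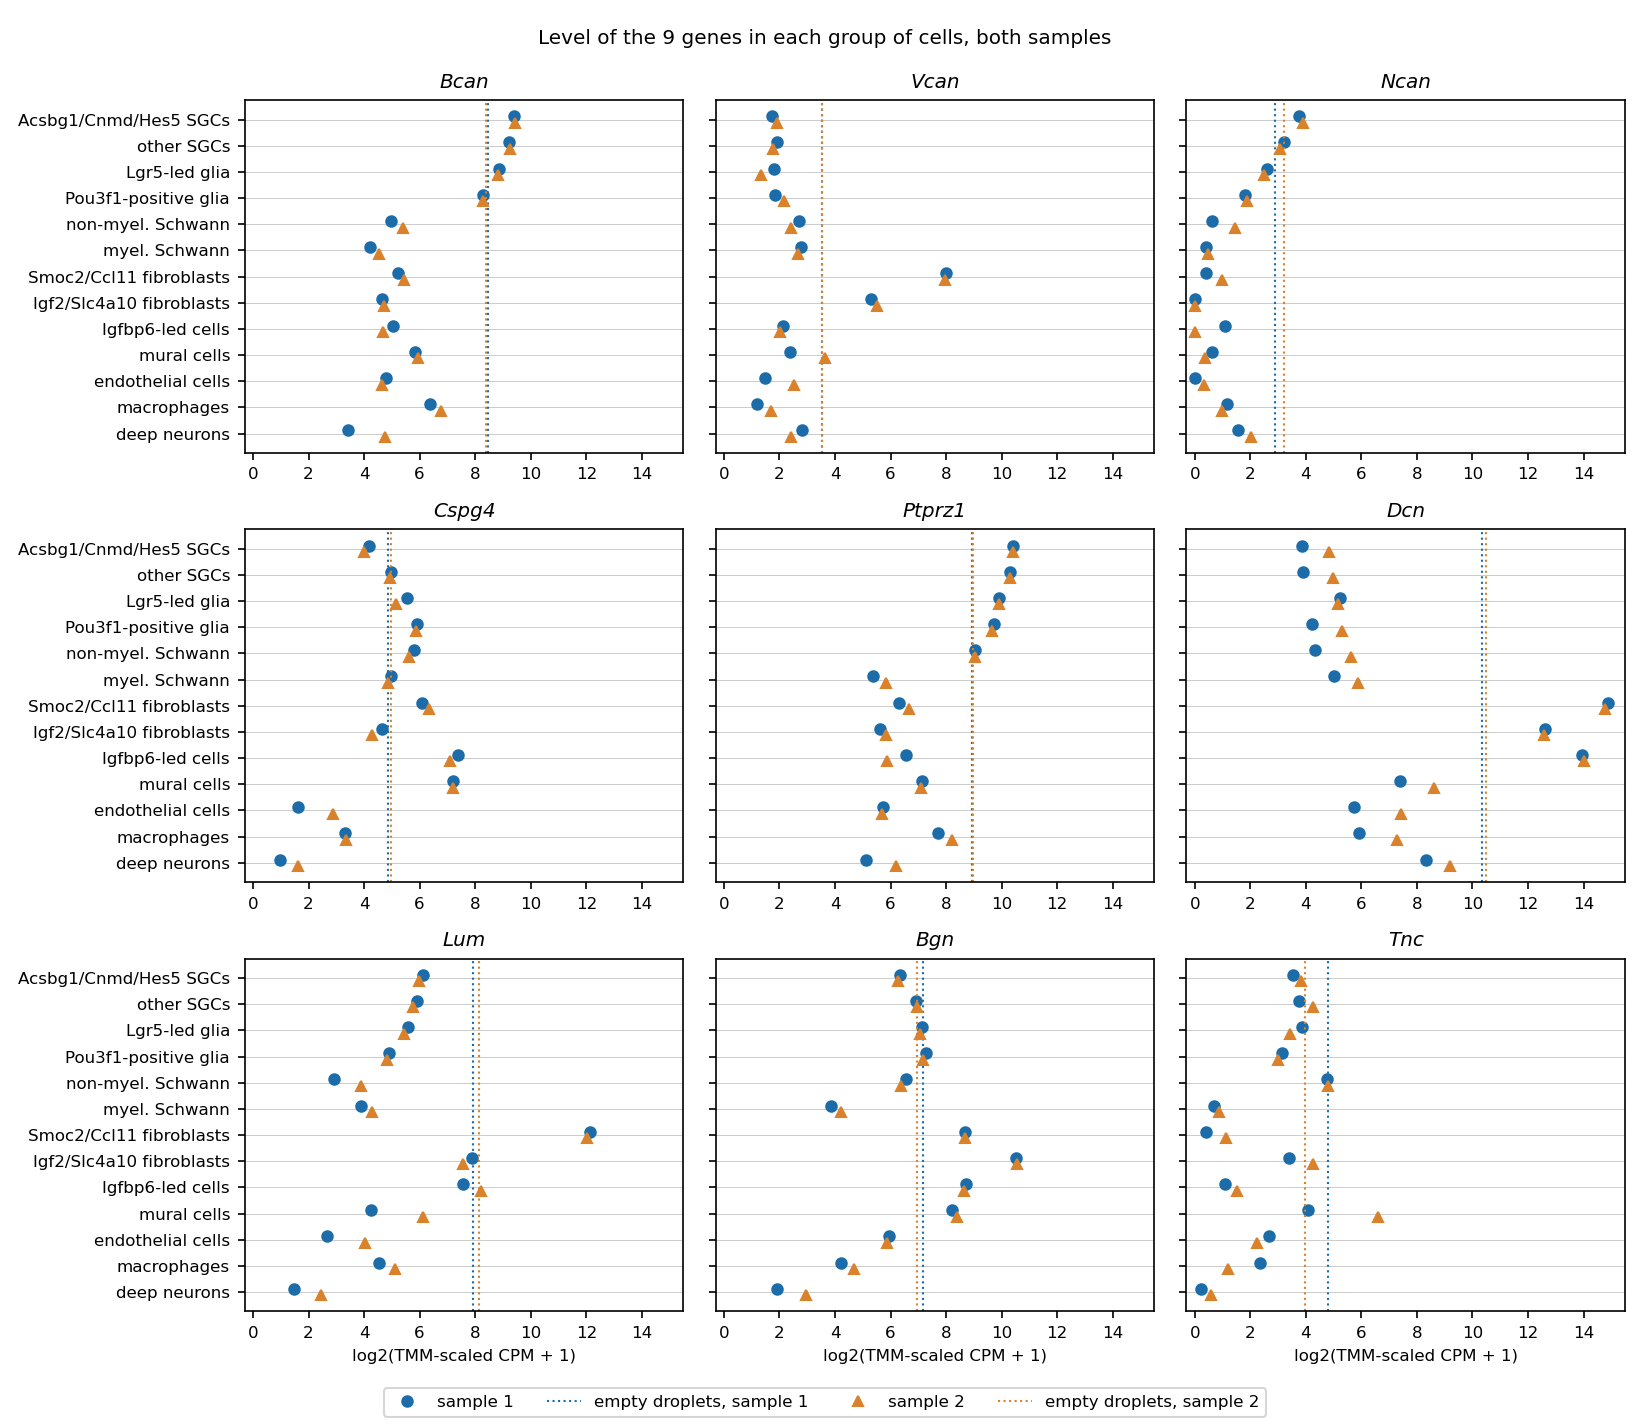
Level of each of the 9 genes as log2(TMM-scaled CPM + 1) in 13 groups of cells, with 1 point per sample and dotted lines for droplets without cells. Bcan, Ncan and Ptprz1 step down from SGCs through Pou3f1-positive glia, while Vcan, Dcn and Lum peak in Smoc2/Ccl11 fibroblasts and Bgn in Igf2/Slc4a10 fibroblasts.

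Ncan had the same order at a low level. SGCs held 10.95 and 12.05 CPM (378 and 430 UMIs), Lgr5-led glia 5.17 and 4.67 CPM and Pou3f1-positive glia 2.51 and 2.70 CPM. Myelinating Schwann cells gave 3 and 4 UMIs and non-myelinating ones 2 and 8. The level in SGCs passed the test against non-myelinating Schwann cells (log2 3.29 ± 0.38, adjusted p = 5.05e-07), and Pou3f1-positive glia were 4.40-fold below SGCs (adjusted p = 1.47e-06). The Acsbg1/Cnmd/Hes5 SGCs exceeded Lgr5-led glia 2.69-fold in Ncan (adjusted p = 0.000111) and 1.47-fold in Bcan (adjusted p = 0.0261). The Bcan call was lost under DESeq2 (adjusted p = 0.146) and with the UMI cutoff alone (adjusted p = 0.0759). For Ptprz1 this difference was 0.50 on the log2 scale, with an interval of 0.09 to 0.91 (adjusted p = 0.0896, and 0.0337 with the sample as a block).

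Vcan, in contrast, marked fibroblasts. Smoc2/Ccl11 fibroblasts held 255 and 248 CPM and Igf2/Slc4a10 fibroblasts 38.8 and 44.3 CPM, a 6.03-fold difference (log2 2.59 ± 0.17, adjusted p = 1.34e-11). Igfbp6-led cells held 3.39 and 3.18 CPM, or 3 and 5 UMIs, and lay 48.8-fold below all fibroblasts (log2 -5.61 ± 0.36, adjusted p = 3.39e-10). Glial groups held between 1.56 and 5.92 CPM, below the 10.49 and 10.44 CPM of droplets without cells. Subtraction of the RNA of empty droplets moved these levels little. Myelinating Schwann cells went from 5.63 and 5.27 to 5.43 and 4.90 plain CPM, and SGCs from 2.21 and 2.41 to 2.11 and 2.23. Myelinating Schwann cells exceeded SGCs in Vcan by 1.11 on the log2 scale (adjusted p = 0.00109). Gm4117, an annotated gene on the opposite strand at Vcan, had 2058 UMIs over all groups and reached 22.5 and 24.0 CPM in the myelinating type.

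Link proteins tie lecticans to hyaluronan, and their genes stand beside lectican genes. Hapln2 lies 21.5 kb from Bcan, Hapln1 43.7 kb from Vcan and Hapln4 2.22 kb from Ncan. Hapln1 held 8.95 and 9.13 CPM in Acsbg1/Cnmd/Hes5 SGCs and 2.41 and 2.90 CPM in Lgr5-led glia (log2 difference 1.76 ± 0.41, adjusted p = 0.00300), although its neighbour Vcan was highest in fibroblasts. In Smoc2/Ccl11 fibroblasts Hapln1 had 3 and 4 UMIs. Hapln4 had 103 UMIs in all cells and Hapln2 had 13, so the neighbours of Ncan and Bcan were hardly detected at this depth.

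Among the glia, Cspg4 was lowest in SGCs, where Bcan, Ncan, Ptprz1 and Lum were highest. SGCs held 22.5 and 19.8 CPM, myelinating Schwann cells 30.4 and 28.1, non-myelinating Schwann cells 52.9 and 46.7, and Pou3f1-positive glia 57.9 and 56.5. Pou3f1-positive glia were 2.71-fold above SGCs (log2 1.44 ± 0.14, adjusted p = 6.76e-08), and their difference from non-myelinating Schwann cells was 0.20 with an interval of -0.12 to 0.52 (adjusted p = 0.412). Mural cells, the pericytes and smooth muscle cells of vessels, held 146 and 146 CPM. Igfbp6-led cells reached 171 and 140 CPM, which was 2.99-fold above fibroblasts (adjusted p = 3.26e-07) and overlapped with mural cells. Smoc2/Ccl11 fibroblasts held 66.5 and 80.2 CPM and Igf2/Slc4a10 fibroblasts 23.9 and 18.3 (3.53-fold, adjusted p = 4.02e-08).

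**Figure D2:**
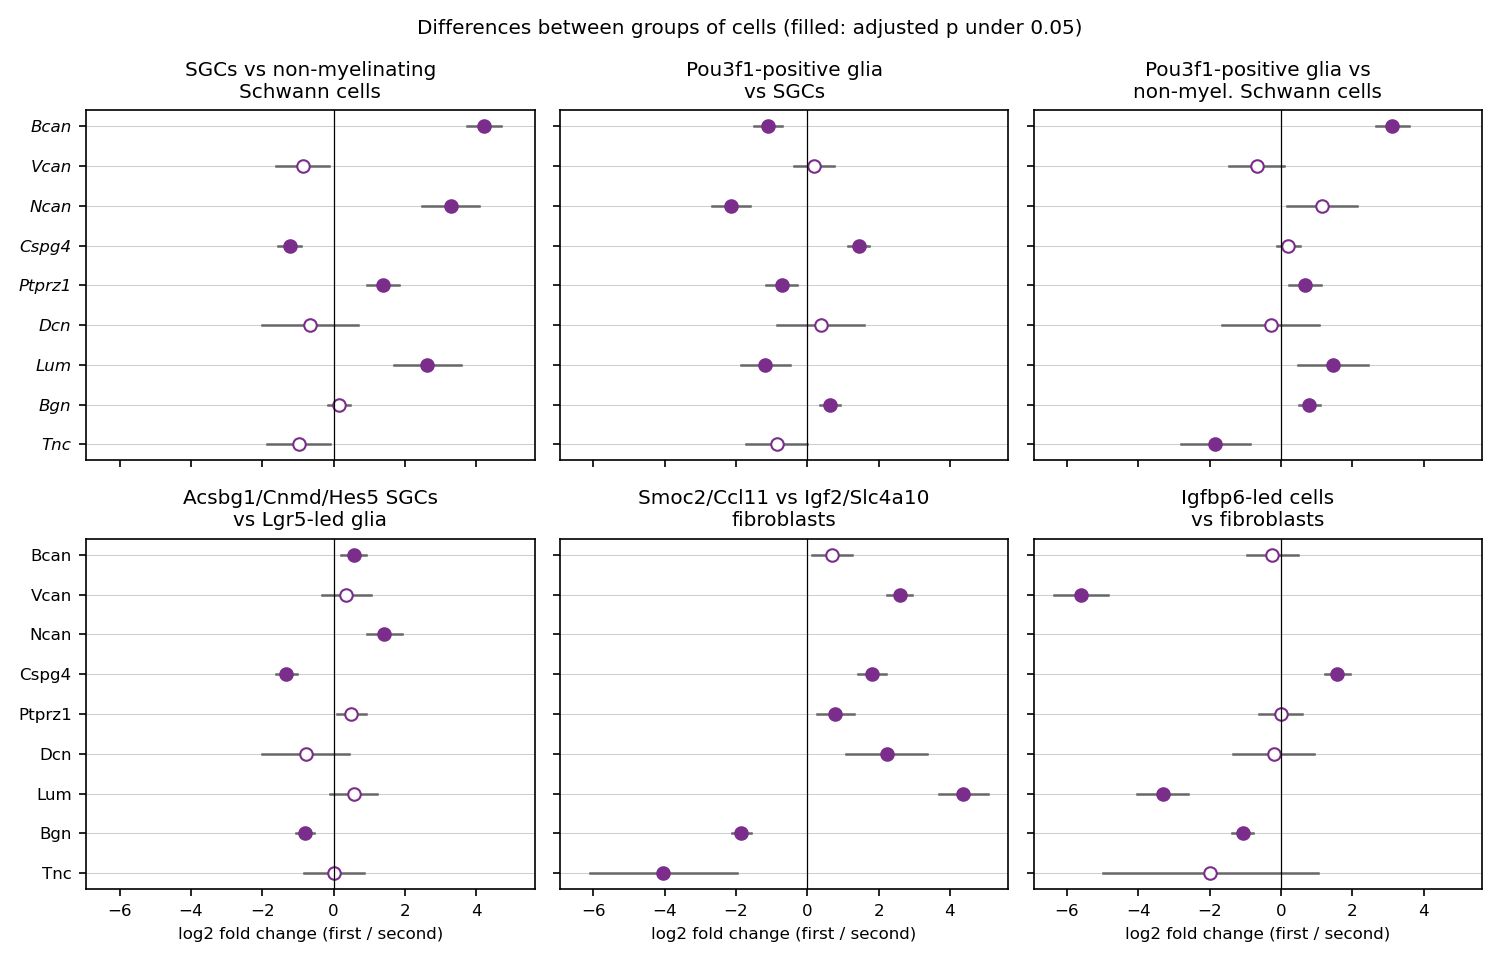
Log2 fold changes of the members in 6 comparisons, with 95% intervals from the edgeR fit and filled points for adjusted p under 0.05. Bcan, Ncan, Ptprz1 and Lum lie above 0 for SGCs against non-myelinating Schwann cells and below 0 for Pou3f1-positive glia against SGCs. Ncan is left out of both fibroblast panels, where its groups hold at most 6 UMIs.

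The SLRPs divided the fibroblasts. Dcn was at 30308 and 27702 CPM in Smoc2/Ccl11 fibroblasts, 15568 and 16633 in Igfbp6-led cells and 6322 and 6046 in Igf2/Slc4a10 fibroblasts. Lum was at 4510 and 4192 CPM in the first of these, 189 and 297 in the second and 233 and 187 in the last, where the latter groups overlapped. Bgn was highest where Dcn was lowest, with 1460 and 1494 CPM in Igf2/Slc4a10 fibroblasts, 414 and 407 in Smoc2/Ccl11 fibroblasts and 415 and 404 in Igfbp6-led cells, which overlapped. Smoc2/Ccl11 against Igf2/Slc4a10 fibroblasts gave 4.69-fold more Dcn (log2 2.23 ± 0.55, adjusted p = 0.00281), 20.8-fold more Lum (4.38 ± 0.33, adjusted p = 1.53e-10) and 3.60-fold less Bgn (-1.85 ± 0.13, adjusted p = 1.81e-11). Both subtypes thus held Dcn, while Lum and Bgn stood at opposite ends.

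Fibroblasts as a whole were also set against the mean of SGCs and both kinds of Schwann cells, taken on the log2 scale. They were 592-fold higher in Dcn (log2 9.21 ± 0.47), 115-fold in Lum (6.85 ± 0.26), 38.4-fold in Vcan (5.26 ± 0.14) and 17.6-fold in Bgn (4.14 ± 0.10). The largest adjusted p was 1.51e-13. Igfbp6-led cells, whose Col1a1 was 694 and 652 CPM, did not pass the test for Dcn, with a log2 difference of -0.21 and an interval of -1.33 to 0.92 (adjusted p = 0.870). They were 9.99-fold lower in Lum (adjusted p = 2.57e-07) and 2.11-fold lower in Bgn (adjusted p = 4.35e-06). The median gene of this comparison lay at -0.10, so these falls are larger than that shift.

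Thinned to 1000 UMIs, Dcn was detected in 100% and 99.8% of Smoc2/Ccl11 fibroblasts and in 79.9% and 78.8% of Igf2/Slc4a10 fibroblasts. Lum was detected in 88.9% and 85.3% of the former and 11.1% and 6.06% of the latter, and Bgn in 26.1% and 32.2% against 73.0% and 71.0%. Dcn and Lum were found together in 88.9% and 85.0% of Smoc2/Ccl11 fibroblasts, close to the Lum shares since nearly all these cells held Dcn. Dcn and Bgn were found together in 58.2% and 56.7% of Igf2/Slc4a10 fibroblasts. The joint shares expected from the single genes were not computed, so these values do not show a link between the genes.

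**Figure D3:**
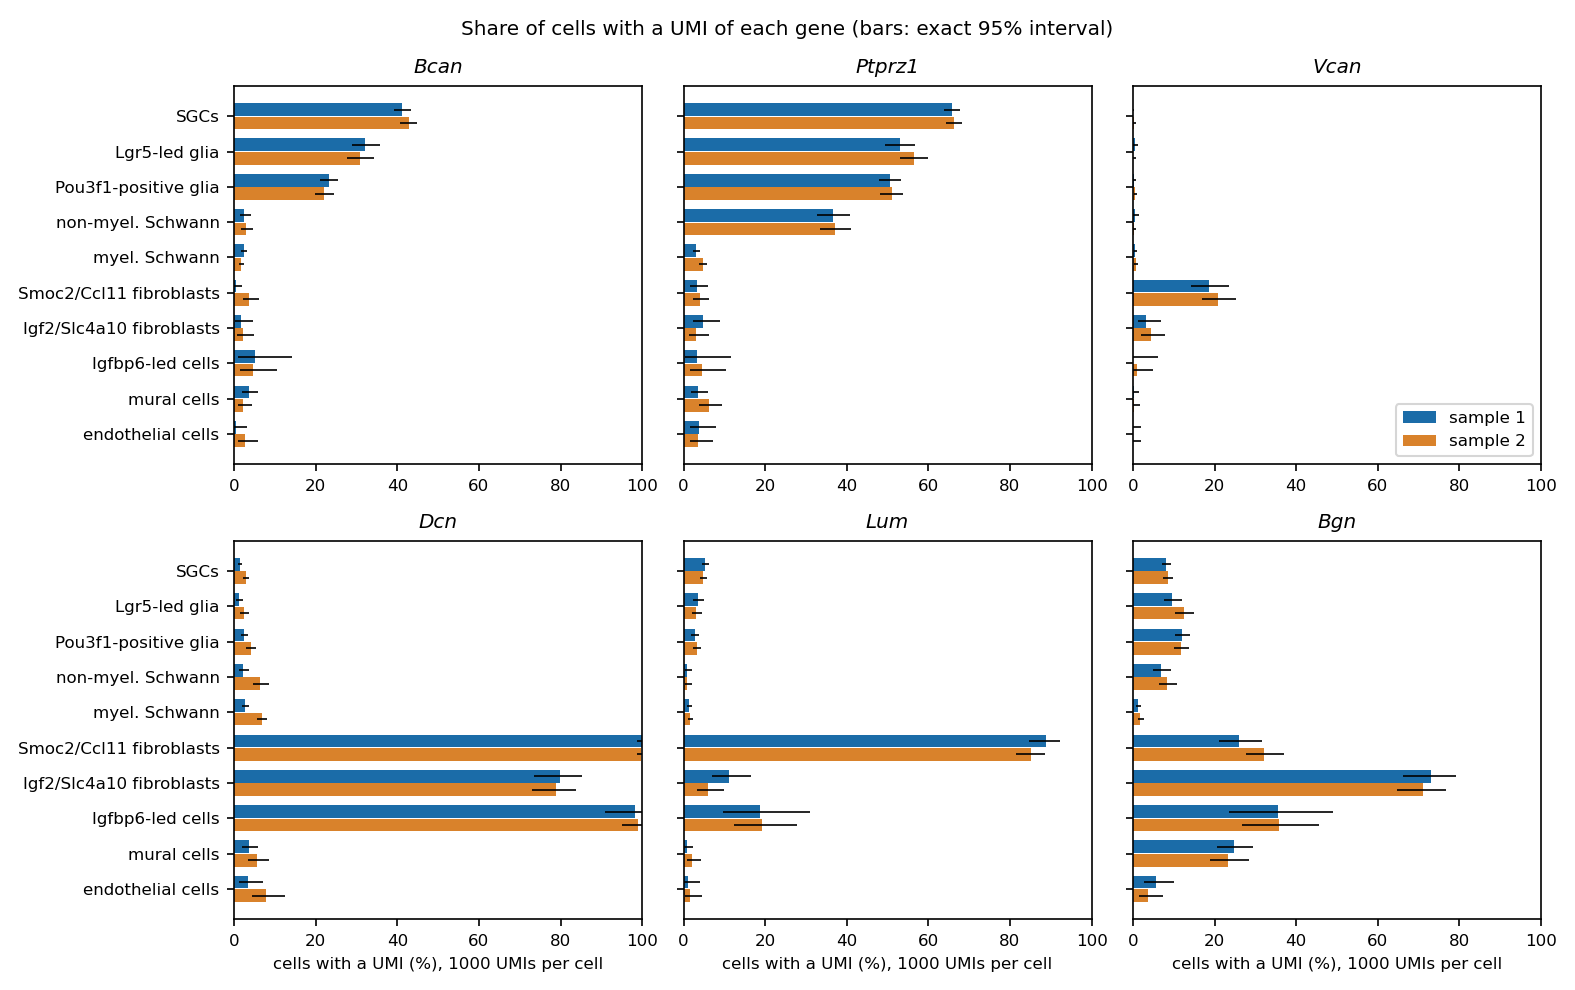
Share of cells with a UMI of 6 genes after thinning each cell to 1000 UMIs, in 10 groups, as bars from 0 with exact 95% binomial intervals that cover counting error only. Bcan and Ptprz1 are frequent in glia, Dcn in every fibroblast group, Lum in Smoc2/Ccl11 fibroblasts and Bgn in Igf2/Slc4a10 fibroblasts.

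Dcn and Lum lie 47.0 kb apart on chromosome 10, followed by Kera and Epyc, which encode 2 further SLRPs. Epyc, like Dcn and Lum, was higher in Smoc2/Ccl11 than in Igf2/Slc4a10 fibroblasts, at 48.3 and 34.4 against 8.62 and 4.79 CPM (log2 2.62 ± 0.36, adjusted p = 1.99e-05). It was however also at 29.97 and 51.6 CPM in Igfbp6-led cells, where Lum was low. Kera had 34 UMIs in all, of which 33 came from Igf2/Slc4a10 fibroblasts of sample 1.

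Lum was also measured in glia, where Dcn was not prominent. SGCs held 65.6 and 60.7 CPM, Pou3f1-positive glia 28.4 and 27.4, myelinating Schwann cells 14.1 and 18.9 and non-myelinating Schwann cells 6.45 and 13.4. SGCs exceeded non-myelinating Schwann cells 6.20-fold (log2 2.63 ± 0.45, adjusted p = 5.68e-05) and Pou3f1-positive glia were 2.26-fold below SGCs (adjusted p = 0.0101, but 0.137 under DESeq2 and 0.129 at a clustering resolution of 0.5). Pou3f1-positive glia against myelinating Schwann cells gave 0.75 for Lum (adjusted p = 0.124, and 0.0488 with the sample as a block). Lum made up 82.5% (95% exact interval 81.1 to 83.9) and 67.7% (66.0 to 69.3) of the Lum and Dcn UMIs in SGCs, 11.5% and 12.01% in fibroblasts and 15.48% and 16.1% in droplets without cells. In both samples the SGC share was above those of fibroblasts and of the free RNA in empty droplets. The SGC shares of the samples differed beyond their intervals, which cover counting error only. The source of the Lum RNA in SGCs was not tested. After subtraction of the RNA of empty droplets, SGCs kept 54.9 and 49.3 plain CPM of Lum and 0 and 2.83 of Dcn. Pou3f1-positive glia had Lum shares of 61.7% and 41.8%. Dcn itself was 13.9 and 29.0 CPM in SGCs, and it was higher in sample 2 than in sample 1 in each glial group but Lgr5-led glia. Its comparisons between glial groups did not pass the test. With the sample as a block, SGCs were lower than myelinating Schwann cells by 1.10 on the log2 scale (adjusted p = 0.00909, and 0.131 without the block). Subtraction of the RNA of empty droplets took Dcn in myelinating Schwann cells from 30.3 and 57.1 to 0.692 and 5.37 plain CPM. The part of free RNA in this difference was not tested.

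Bgn in glia was highest in Pou3f1-positive glia, at 151 and 143 CPM, against 97.3 and 91.7 in SGCs, 90.3 and 79.9 in non-myelinating and 13.5 and 17.7 in myelinating Schwann cells. The Pou3f1-positive level was 1.56-fold above SGCs (adjusted p = 0.000815) and 1.73-fold above non-myelinating Schwann cells (adjusted p = 0.000201). Lgr5-led glia were just below, at 140 and 134 CPM, without overlap. Mural cells held 290 and 337 CPM.

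Tnc was low in most groups. Non-myelinating Schwann cells held 25.8 and 26.1 CPM, SGCs 11.5 and 14.8, Pou3f1-positive glia 7.66 and 6.86 and myelinating Schwann cells 0.623 and 0.862. Non-myelinating Schwann cells exceeded Pou3f1-positive glia 3.57-fold (adjusted p = 0.00520), and the difference from SGCs was log2 0.98 with an adjusted p of 0.0754 (0.0448 with the sample as a block). Igf2/Slc4a10 fibroblasts held 9.61 and 18.0 CPM, against 1 and 6 UMIs in Smoc2/Ccl11 fibroblasts (adjusted p = 0.00296). Mural cells differed between samples, with 15.9 and 95.9 CPM, and without cells marked as doublets they held 1.78 and 76.2 plain CPM, against 3.60 and 8.39 in fibroblasts, so that the direction turned in sample 1 and the difference rested on sample 2. Fibroblasts were lower than mural cells by 3.09 on the log2 scale (adjusted p = 2.08e-05), or by 1.70 in sample 1 alone. With equal numbers of cells it missed the threshold (adjusted p = 0.0729).

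Counted over comparisons, 68 of 99 tests of a member passed, beside a background in which many genes differ between cell types. SGCs against non-myelinating Schwann cells had 4 of 9 members higher and 1 lower (2 with the sample as a block), where 19.9% and 15.3% of the 17780 genes tested were. Against myelinating Schwann cells SGCs had 6 higher and 2 lower (27% and 24.9% of all genes), and non-myelinating against myelinating Schwann cells had 5 higher and 0 lower (17.3% and 18.3%). Pou3f1-positive glia had 2 higher and 4 lower than SGCs (10.1% and 15.8%). They had 4 higher and 1 lower than non-myelinating Schwann cells (11.4% and 10.7%), and 6 higher and 1 lower than myelinating Schwann cells (19.7% and 19.5%). The comparisons share groups, so these counts are not independent.

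Fibroblasts against the mean of SGCs and both kinds of Schwann cells, taken on the log2 scale, had 5 members higher and 3 lower (28% and 23.5% of all genes). The 5 were Vcan, Cspg4, Dcn, Lum and Bgn, and the 3 were Bcan, Ncan and Ptprz1. Fibroblasts held more Bcan than myelinating Schwann cells (means of 33.2 and 20.1 CPM) and more Ptprz1 (74.3 and 48.4 CPM). Without cells marked as doublets they held less, 5.69 and 10.2 against 14.4 and 16.8 plain CPM of Bcan. For Ptprz1 these values were 7.58 and 11.2 against 33.8 and 42.8. Against mural cells fibroblasts had 4 higher and 4 lower (20.1% and 17.2%). Bcan and Ptprz1 were among the 4 lower, and neither passed without cells marked as doublets. Igfbp6-led cells had 1 higher and 3 lower than fibroblasts (7.19% and 10.8%). Smoc2/Ccl11 against Igf2/Slc4a10 fibroblasts had 6 higher and 2 lower (14.7% and 12.6% of 17514 genes). Bcan passed as well with the sample as a block (log2 0.69, adjusted p = 0.0407, and 0.0628 without it), and was 0.26 on the log2 scale without cells marked as doublets. Of the 6 higher, Ncan rested on 1 and 5 UMIs against 0 and 0 and missed the threshold with the block (adjusted p = 0.0537), and Ptprz1, at 79.1 and 102 against 48.7 and 56.3 CPM, turned to -0.21 on the log2 scale without cells marked as doublets. Acsbg1/Cnmd/Hes5 SGCs against Lgr5-led glia had 2 higher, Bcan and Ncan, and 2 lower, Cspg4 by 1.32 and Bgn by 0.80 on the log2 scale (9.93% and 7.29%). In that comparison 25.5% and 25.8% of Lgr5-led glia were marked as doublets, against 14.7% and 15.6% of Acsbg1/Cnmd/Hes5 SGCs, and the part of this in the result was not tested.

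The level of Bcan and Ptprz1 outside the glia fell when cells marked as doublets were left out. In fibroblasts, removing marked cells took Bcan from 30.4 and 35.8 to 5.69 and 10.2 plain CPM (not TMM-scaled), and Ptprz1 from 64.2 and 83.9 to 7.58 and 11.2. In mural cells Bcan went from 54.7 and 61.1 to 8.52 and 9.33. The 9 genes were not kept out of the doublet score, and their part in these falls was not tested. Bcan made up 32.1% and 29.9% of Bcan and Ptprz1 UMIs in fibroblasts and 28.6% and 30.9% in mural cells. In SGCs it made up 32.6% and 33.3%. The source of this RNA outside the glia was not tested.

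Partner genes came from 6 lists of 89 genes. Of 14 core proteins of other matrix proteoglycans tested, 10 were lower and 2 higher in SGCs than in myelinating Schwann cells. The shares of all genes were 24.9% and 27%, and the median log2 was -2.12, against -0.00366 over all genes. Against non-myelinating Schwann cells, 2 were lower and 1 higher in SGCs (15.3% and 19.9% of all genes). Non-myelinating against myelinating Schwann cells had 7 lower and 1 higher (18.3% and 17.3%). Osteoglycin (Ogn), an SLRP, was at 786 and 783 CPM in myelinating Schwann cells and 45.6 and 51.9 in SGCs (log2 -4.01 ± 0.17, adjusted p = 7.06e-15). Spock3, a testican, held 57.6 and 74.7 against 0.608 and 1.06 CPM. Among cell surface proteoglycans, Cspg5 (neuroglycan C) held 96.0 and 93.3 CPM in SGCs, 13.8 and 12.4 in Pou3f1-positive glia and 7.48 and 12.1 in non-myelinating Schwann cells. Its step from SGCs to Pou3f1-positive glia was -2.85 ± 0.15 on the log2 scale (adjusted p = 1.51e-11).

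Ligands and receptors included pleiotrophin (Ptn), which binds the chondroitin sulfate of PTPRZ1, and contactin-1 (Cntn1), a neural adhesion partner of it. Ptn was at 4230 and 4058 CPM in SGCs, 2473 and 2221 in Pou3f1-positive glia, 1438 and 1353 in non-myelinating and 106 and 132 in myelinating Schwann cells. Cntn1 was at 150 and 158 CPM in SGCs, 131 and 133 in Pou3f1-positive glia and 20.4 and 26.1 in non-myelinating Schwann cells (SGCs 6.56-fold higher, adjusted p = 2.61e-11). Of the 15 genes of this list, 0 were higher and 7 lower in Pou3f1-positive glia than in SGCs, beside 10.1% and 15.8% of all genes, with a median log2 fold change of -0.22 against -0.03 over all genes.

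Among genes that build chondroitin and dermatan sulfate, 17 of 22 were higher and 2 lower in fibroblasts than in the mean of glia. The shares of all genes were 28% and 23.5%, and the median log2 was 0.98, against -0.00416 over all genes. The Smoc2/Ccl11 fibroblasts, rich in Dcn and Lum, had 2 of 22 higher and 9 lower than the Igf2/Slc4a10 fibroblasts, beside 14.7% and 12.6% of all genes (median log2 -0.40, against 0.00436 over all genes). Dse, the epimerase that turns chondroitin into dermatan sulfate, was at 46.1 and 45.4 CPM in the former and 155 and 146 in the latter (log2 -1.71 ± 0.17, adjusted p = 1.95e-08), and Chst11, a sulfotransferase, at 32.3 and 37.5 against 102 and 129 CPM. The SLRPs fibromodulin (Fmod, 0.627 and 1.35 against 118 and 114 CPM) and asporin (Aspn, 2.51 and 6.57 against 298 and 250 CPM) were, like Bgn, lower in Smoc2/Ccl11 fibroblasts. Of the proteases, Adamts5, which cuts lecticans, held 402 and 440 CPM in SGCs, 125 and 122 in Pou3f1-positive glia and 95.7 and 107 in non-myelinating Schwann cells.

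Dcn had one more place, a subset of neurons. Deep neurons held 337 and 614 CPM, but 10 of 55 and 15 of 54 cells with at least 20 Dcn UMIs carried 95.2% and 97.8% of them, up to 407 and 491 in a cell. Of these neurons, 33 and 26 had a barcode that was called in both samples, and 98.2% and 88.9% were marked by the doublet score, whose part was not tested. Without the shared barcodes, 3 of 22 and 7 of 28 neurons carried 91.5% and 97.8% of the Dcn UMIs. Over all deep neurons, the Dcn-high cells had 2 and 13 Lum UMIs and 8 and 2 Col1a1 UMIs in all, and 1 neuron held all 8 of sample 1. In mural cells the 3 and 4 cells with as many Dcn UMIs had 33 and 188 Lum and 36 and 146 Col1a1 UMIs. The Dcn-high neurons held 1.10 and 2.61 CPM of Trpm8, a cold channel, against 138 and 167 in the other neurons. Scn10a (74.9 and 102 against 243 and 387 CPM), Nefh (70.5 and 70.5 against 144 and 169) and Ntrk3 (60.5 and 15.7 against 139 and 235) were also lower in both samples, while Calca and Tac1 were lower in sample 1 and higher in sample 2. These markers were read after cells were chosen by Dcn and are descriptions.

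**Figure D4:**
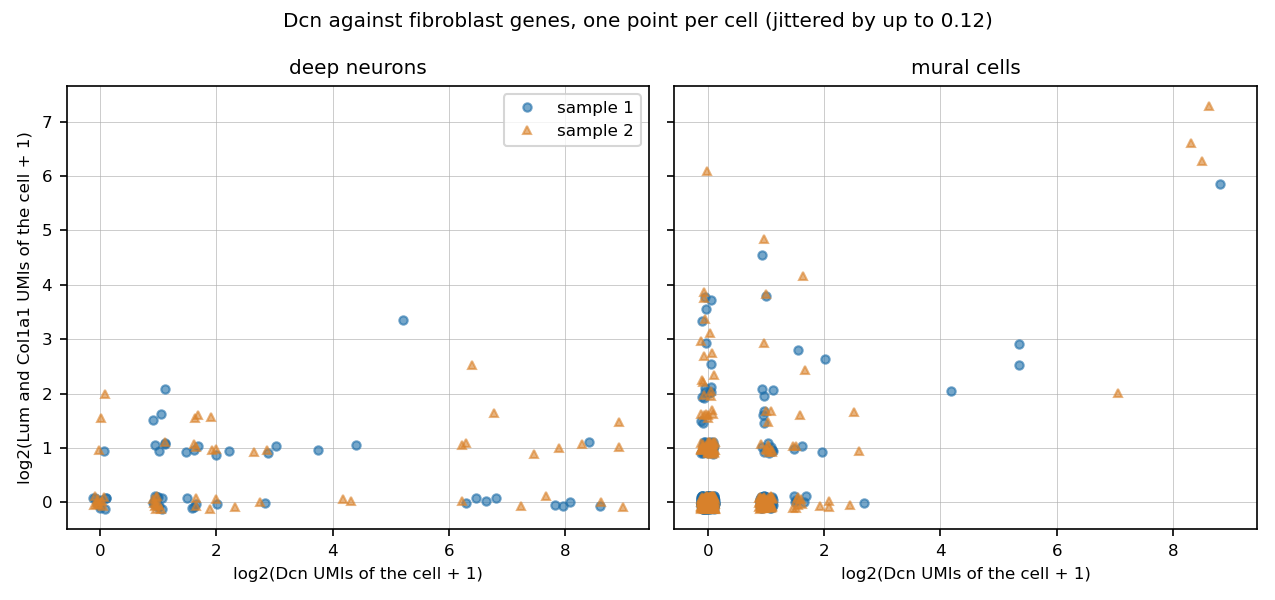
Dcn UMIs against the sum of Lum and Col1a1 UMIs in each deep neuron and each mural cell, both as log2(UMIs + 1), with points jittered by up to 0.12. Most Dcn-high neurons lie at the bottom, apart from 1 with 1 Lum and 8 Col1a1 UMIs and 1 with 5 Lum UMIs, while the 4 mural cells with the most Dcn lie higher than all of them.

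The genes whose pattern was most like each member were ranked by Pearson's correlation across 28 group by sample profiles, which share libraries, so the values are descriptions. Bcan was followed most closely by Rlbp1 (r = 0.977), Ptprz1 by Mmd2 (0.991) and Ncan by Lss (0.931), a sterol synthesis enzyme. Vcan was followed by Dpep1 (0.918), Cspg4 by B130024G19Rik (0.932), Dcn by Creb3l1 (0.955), Lum by Cpxm1 (0.924), Bgn by Col6a3 (0.951) and Tnc by Synpo2 (0.868), out of 11401 genes searched.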

How the data were processed

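Dorsal root ganglia were profiled by 3' droplet scRNA-seq. The authors deposited UMI counts for every gene and barcode, made with Cell Ranger on mm10 per the labels, as raw matrices of 1762921 and 1832899 barcodes. Cells were called by a UMI cutoff (4612 and 4389 UMIs) and then by difference from the RNA of empty droplets, giving 8800 and 8766. Clustering used Seurat 5.3.0 with sctransform 0.4.2 (3000 variable genes, 30 components, default resolution) without the 9 genes and 89 partner genes. The doublet score kept none of these genes out. Of 17566 cells, 801 were removed as doublet or low-quality clusters and 206 by limits on UMIs and mitochondrial share, and deep neurons were exempt from the UMI limit. The rule for ranking leading genes, the separation of Lgr5-led glia, the doublet-cluster rule and that exemption were set after the data were seen. No tests over single cells were run, since cells are not replicates.

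UMI counts were summed per sample and group and tested with edgeR 4.0.16 (R 4.3.3; quasi-likelihood, TMM, at least 10 counts in at least 2 profiles, Benjamini-Hochberg over all genes, threshold 0.05), in a fit of types and a fit of subtypes, each with its own scaling. On simulated data for SGCs against non-myelinating Schwann cells (17568 genes), 93% of 2-fold and 100% of 4-fold changes were recovered, and 10.2% of calls were unchanged genes. All groups come from the same 2 samples and are therefore paired by sample, whereas the fit had no block. The blocked value is given where it changes a call. The correlation of deviations over 66 pairs of groups had a median of 0.0732 (range -0.0129 to 0.373, 27 pairs over 0.1). Alternatives were DESeq2 1.42.0, cell calling, clustering, doublets, filter, replicate block, empty-droplet subtraction, equal cell numbers, single samples and shared barcodes. Intervals and floors (3 counts) cover counting error only. The 9 members and the lists were chosen with earlier results of these data known. All members are named. Of a partner list, up to 3 called genes with the largest change and at least 50 CPM were named per comparison, besides the neighbouring genes.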

Additional observations from a re-analysis of the deposited data

Results flagged for a closer look

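Some members gave signal in groups that enter no comparison. Dcn was at 337 and 614 CPM in deep neurons, carried by few cells. Vcan was at 6.33 and 4.51 CPM and Ncan at 2.05 and 3.25 CPM in the same neurons, on 37 and 25 and on 12 and 18 UMIs. Bcan was at 80.2 and 105 CPM and Ptprz1 at 202 and 287 CPM in macrophages, of which 25.4% and 34.0% were marked as doublets. Without marked cells, macrophages held 26.4 and 22.8 plain CPM of Bcan and 86.8 and 82.1 of Ptprz1. Of the deep neurons, 98.2% and 88.9% were marked by the same score.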

How the results depend on the processing

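Of 1134 tested alternative values of the members' fold changes, 1026 kept their side of the threshold without a reversal and 4 reversed. A change of direction was counted as a reversal only where the main or the alternative value passed the threshold. Bcan in non-myelinating against myelinating Schwann cells went to -0.61 on the log2 scale with 20 principal components (adjusted p = 0.0475) and to -0.0095 without cells marked as doublets. Ptprz1 in Smoc2/Ccl11 against Igf2/Slc4a10 fibroblasts went to -0.21 without marked cells and to -0.27 with equal numbers of cells. Of 252 counts of members, 215 stayed within 1.5 times.

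For SGCs against non-myelinating Schwann cells, the number of members lower went from 1 to 2 under DESeq2, 20 principal components, members among the variable genes, no marked doublets, the replicate block and no shared barcodes (an alternative chosen after seeing the data), to 3 with the UMI cutoff alone and at resolutions of 0.5 and 1.2, and to 4 with no filter on low counts. Against myelinating Schwann cells, SGCs had 1 lower in place of 2 with the UMI cutoff alone and with members among the variable genes. Non-myelinating against myelinating Schwann cells had 3 higher and 1 lower with 20 principal components, and 2 lower with no filter. Pou3f1-positive glia had 2 lower than SGCs under DESeq2, 2 higher than non-myelinating Schwann cells under DESeq2 and the UMI cutoff alone, 2 lower than these with members among the variable genes, and 2 lower than myelinating Schwann cells with no filter. Fibroblasts had 2 lower than mural cells with members among the variable genes and without marked doublets. Smoc2/Ccl11 against Igf2/Slc4a10 fibroblasts had 3 higher at a resolution of 0.5. Acsbg1/Cnmd/Hes5 SGCs had 1 higher than Lgr5-led glia under DESeq2 and the UMI cutoff alone, and 4 without marked doublets and with no filter. With no filter more genes entered the fit. The cause of these changes, with that setting included, was not tested.

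With 54 cells per group and sample, and so fewer cells, 25 fold changes lost their call, with the reversed Ptprz1 value among them. The counts became 0 lower for SGCs against myelinating Schwann cells, 3 higher for non-myelinating against myelinating Schwann cells, 1 higher and 1 lower for Pou3f1-positive glia against SGCs, 1 higher and 0 lower against non-myelinating and 0 lower against myelinating Schwann cells, 1 lower for fibroblasts against glia, and 0 higher and 1 lower for Acsbg1/Cnmd/Hes5 SGCs against Lgr5-led glia.

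With the replicate block, 93 of 99 fold changes kept their call, and the other 6 are given beside their results. In 1 sample alone, values with no test, no fold change that was called in the main fit reversed. Ncan in Smoc2/Ccl11 against Igf2/Slc4a10 fibroblasts lost its call under 11 tested alternatives and kept it with 20 principal components (adjusted p = 0.0314). The shares of cells rise with depth by construction, and 104 of 135 moved at 2000 UMIs. The 20-component clustering gave 8 of 11 comparisons, with none of Pou3f1-positive glia, and left 1585 cells unnamed. The resolution of 0.5 gave 9, without Igfbp6-led cells against fibroblasts and Acsbg1/Cnmd/Hes5 SGCs against Lgr5-led glia. Members among the variable genes gave 10, without the last of these. Missing comparisons are not among the tested alternative values. Few UMIs limit Ncan in Schwann cells and Tnc in the myelinating kind.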
